A study of Citrus sinensis with 6 samples.

Results

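The genes described here are KEGG Peroxisome genes of sweet orange. Genes annotated to superoxide dismutase or peroxidase activity, and those of several neighbouring lipid and organic acid pathways, were set aside. Of the 29875 genes in the deposited table, 99 carried the pathway name Peroxisome, and 30 of them were dropped by the rule: 9 for superoxide dismutase activity, 1 for peroxidase activity, 9 for alpha-linolenic acid metabolism, 8 for fatty acid biosynthesis and 3 for the citrate cycle. The rule reads annotation only and left 69 members. Of these, 24 carry the GO term peroxisome. Another limit is that 14 members carry no GO term, so the activity terms could not drop them. Whether the products of all members are in the peroxisome was not tested. Leaf RNA was sequenced in 6 libraries of tissue-cultured plants of the Bingtang variety, 3 from boron-deficient plants (T) and 3 from plants on sufficient boron (CK), collected after 25 days. The design of the series gives the boron supply as 0.01 mg/L for T and 0.25 mg/L for CK, amounts which the study's methods call boric acid, while the treatment note attached to the libraries gives 0.01 mg/L for all 6. The titles call the T material leaf and the CK material leaf blades, so a difference in the part collected cannot be told apart from boron supply. Both groups passed through callus and adventitious shoots, and nothing in the labels says that the libraries of a group came from separate plants. The p-values below therefore measure the spread between these libraries, which may be technical.

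Peroxisomes are small organelles bounded by a single membrane that carry no genome, so all their matrix proteins are imported from the cytosol by receptors that recognize a targeting signal and dock at the membrane. In green leaves they are best known for photorespiration, in which glycolate leaving the chloroplast is oxidized to glyoxylate with release of hydrogen peroxide, and glyoxylate is transaminated to glycine. They also oxidize fatty acids and house steps of amino acid, purine and isoprenoid metabolism.

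Expression was given as FPKM, the fragments assigned to a gene, scaled to its length and to the size of the library, which allows levels to be compared between genes. Reads in genes were recovered from the FPKM values. They numbered 17689351, 22631643 and 21157612 for T replicates 1 to 3, and 19096097, 19380173 and 24026313 for CK replicates 1 to 3. Libraries of a group were not always most alike: over all tested genes, Pearson's r of log2(FPKM + 1) was 0.875 to 0.940 within T and 0.888 to 0.932 within CK, and the highest r of any pair, 0.958, was between T replicate 3 and CK replicate 1. Genes were tested if they had at least 1 FPKM in at least 3 libraries, and 52 members passed this filter. Of the other 17, 8 were listed at 0 in every library and the remaining 9 did not exceed 2.08 FPKM. The tested members had a median level of 13.1 FPKM, close to the 12.5 FPKM of all 16421 tested genes.

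Most Peroxisome genes differed little between boron-deficient and control leaves, as did most tested genes. Of the 52 tested members, 31 had a positive and 21 a negative log2 fold change (T minus CK on log2(FPKM + 1), as throughout), with a median of 0.04 beside 0.02 over all tested genes, of which 53.2% were positive. The difference was under 0.25 log2 units in 32 members, or 61.5%, beside 61.7% of all tested genes. By the study's criterion for a differentially expressed gene, at least a 2-fold difference with an unadjusted p of at most 0.05, 1 member was higher in T (Cs_ont_1g018650) and 2 were lower (Cs_ont_2g031290 and Cs_ont_3g017770). Over all tested genes 1.27% were higher and 1.08% lower by this criterion, and 2.36% passed in either direction beside 5.77% of the members. After Benjamini-Hochberg adjustment of limma's p over all tested genes, no member passed 0.05 and the lowest adjusted p of a member was 0.883, while 0.00609% of all tested genes passed. At an unadjusted p under 0.05, limma found the same counts, 1 member higher and 2 lower, beside 2.29% of all tested genes higher and 2.49% lower (4.78% in either direction). A log2 fold change of at least 1 either way was seen in 4 of the 52 tested members, beside 709 of the 16421 tested genes (4.32%). Among these 4 were the direct neighbours Cs_ont_1g018640 and Cs_ont_1g018650, which may share reads.

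**Figure D1:**
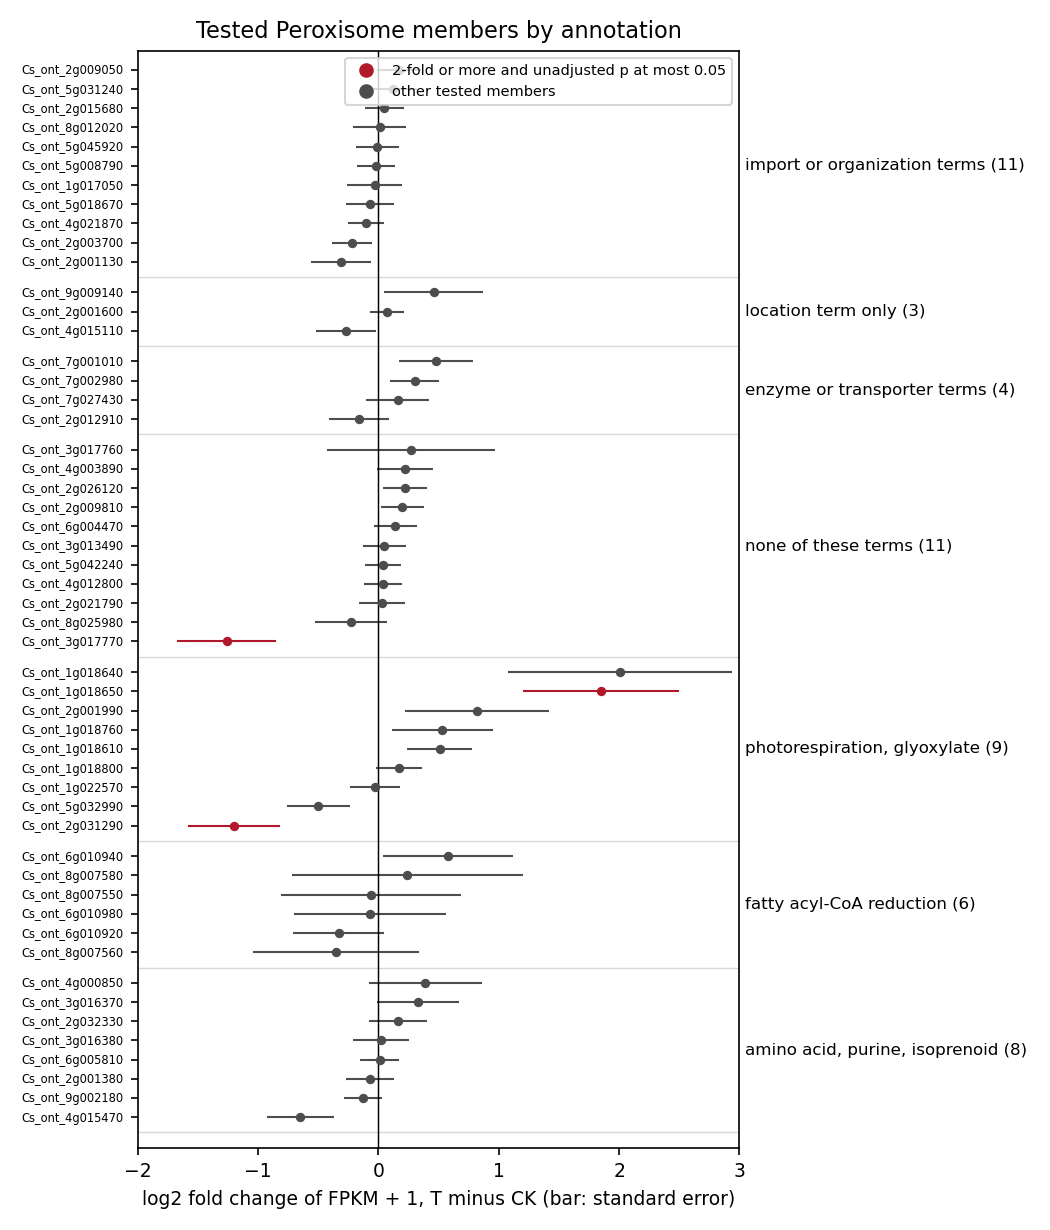
Log2 fold change of FPKM + 1 (T minus CK, horizontal axis, bars for the standard error) of the 52 tested members, in rows grouped by annotation with the number of genes in parentheses. The 11 genes with import or organization terms lie between -0.31 and 0.17, while the photorespiration and glyoxylate genes span -1.20 to 2.01.

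The 9 members that belong to photorespiration or to glyoxylate metabolism included the most abundant member and differed most widely among themselves. Their log2 fold changes ran from -1.20 to 2.01, with 6 positive, 3 negative and a median of 0.51. This median rested in part on a single library, since it was 0.10 without CK replicate 2. The abundant enzymes of the group were lower in T, and a cluster of less abundant oxidase genes had higher mean levels in T.

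Cs_ont_5g032990 is annotated as a (S)-2-hydroxy-acid oxidase, the activity known in leaves as glycolate oxidase, which makes glyoxylate and hydrogen peroxide from glycolate. It had 302, 199 and 321 FPKM in T replicates 1 to 3, against 404, 376 and 362 FPKM in CK replicates 1 to 3. All T libraries lay below all CK libraries, with T replicate 2 the lowest, and this was the case for 3.71% of all tested genes. The mean was 274 ± 65.5 FPKM in T and 381 ± 21.9 FPKM in CK (SD over 3 libraries). The log2 fold change was -0.50 (SE 0.26), which did not pass the criterion (limma, adjusted p = 0.999), and it was -0.29 without T replicate 2. A two-sided exact permutation test of the mean FPKM gave p = 0.1, the smallest that 3 against 3 libraries allow.

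Cs_ont_2g031290 carries the terms serine-pyruvate and alanine-glyoxylate transaminase, the step that turns glyoxylate into glycine, and the process term photorespiration. It had 45.1, 28.8 and 80.1 FPKM in T, against 88.5, 138 and 107 FPKM in CK. Here too every T library lay below every CK library, with T replicate 3 and CK replicate 1 closest to each other. The mean in T was 0.462 of that in CK, with a log2 fold change of -1.20 (SE 0.38), and the gene met the criterion for lower expression (limma, adjusted p = 0.883, exact permutation p = 0.1). The call was lost without T replicate 1, T replicate 2 or CK replicate 2, with log2 fold changes of -1.17, -0.85 and -1.03.

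The summed FPKM of all members was 1310, 1165 and 1369 in T, against 1425, 1339 and 1477 in CK, and its groups overlapped. The oxidase Cs_ont_5g032990 and the transaminase Cs_ont_2g031290 together summed to 347, 228 and 401 FPKM in T, against 493, 513 and 469 FPKM in CK. The sum of all other members was 963, 937 and 968 FPKM in T, against 932, 826 and 1008 FPKM in CK. Both genes alone had every T library below every CK library, so their sum could not overlap between the groups. The sum of the other members did overlap. This split is given as a description without a test and adds nothing to the values of the single genes. The oxidase Cs_ont_5g032990 alone made up 17.1% to 23.4% of the summed FPKM of the members in T and 24.5% to 28.4% in CK.

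The other 5 genes with the oxidase term lie close together in the table, between Cs_ont_1g018610 and Cs_ont_1g018800, and all had positive log2 fold changes. Cs_ont_1g018610, the most abundant of them, had 52.8, 38.7 and 60.7 FPKM in T, against 46.7, 26.3 and 33.9 FPKM in CK, a log2 fold change of 0.51 (SE 0.27). Cs_ont_1g018760 had 33.8, 24.4 and 36.7 FPKM in T, against 38.0, 11.2 and 22.0 FPKM in CK, a log2 fold change of 0.53 (SE 0.42), which was 0.10 without CK replicate 2 and 0.94 without CK replicate 1. Cs_ont_1g018800 had 19.6, 13.0 and 17.4 FPKM in T, against 15.2, 13.8 and 14.5 FPKM in CK, a log2 fold change of 0.17 (SE 0.19). In these 3 genes the groups overlapped, and none met the criterion.

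Cs_ont_1g018650 met the criterion for higher expression, and its direct neighbour Cs_ont_1g018640 had the largest log2 fold change of any member without meeting it. Cs_ont_1g018650 had 20.0, 6.39 and 13.6 FPKM in T, against 6.91, 0.549 and 2.92 FPKM in CK, with a log2 fold change of 1.85 (SE 0.65; limma, adjusted p = 0.938). Cs_ont_1g018640 had 32.9, 11.5 and 27.4 FPKM in T, against 16.0, 0.350 and 7.05 FPKM in CK, with a log2 fold change of 2.01 (SE 0.93; limma, adjusted p = 0.999). In both genes T replicate 2 was lower than CK replicate 1, so the groups overlapped, and the exact permutation p was 0.2 for each. CK replicate 2 held only 5 reads of Cs_ont_1g018650 and 2 reads of Cs_ont_1g018640. It was the lowest library in 4 of the 5 neighbouring genes, and without it the log2 fold change of Cs_ont_1g018640 was 0.97, while that of Cs_ont_1g018650 was 1.24 and fell short of the criterion. When CK replicate 1 was left out, Cs_ont_1g018640 was at 2.80 and met it. The call was also lost without T replicate 1, T replicate 3 or CK replicate 3, at 1.51, 1.78 and 1.91. The shortest gene lengths that gave whole reads were 294 bases for Cs_ont_1g018640 and 468 bases for Cs_ont_1g018650, against 1095 bases for Cs_ont_1g018610. Such short models among related neighbours can share reads with them, so the division of reads between these 5 genes is uncertain.

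**Figure D2:**
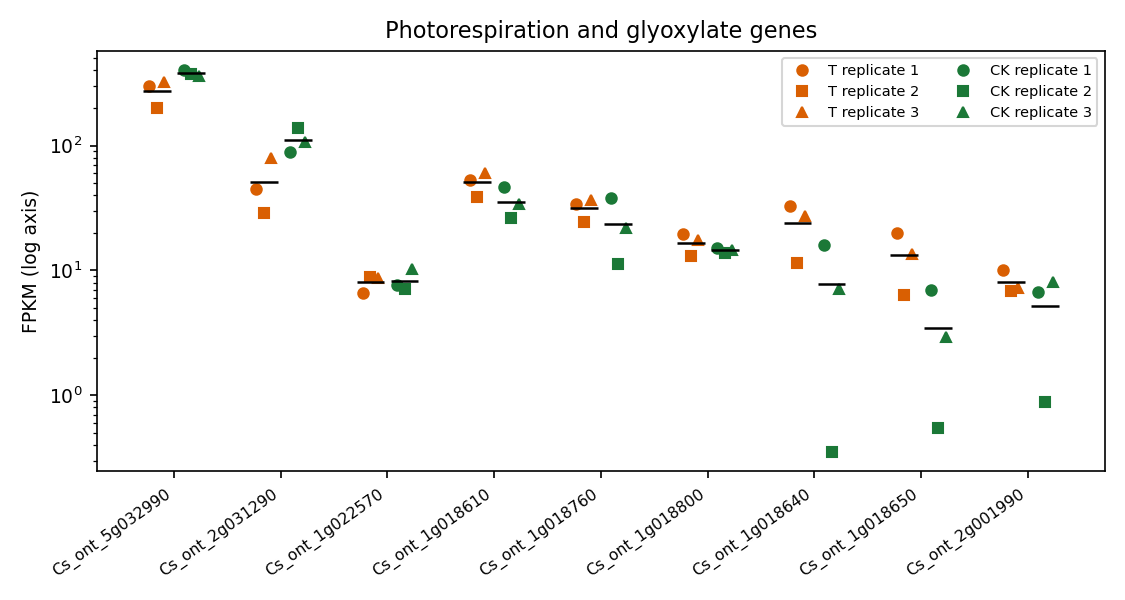
FPKM (vertical log axis) of the 9 photorespiration and glyoxylate genes, with T (orange) left of CK (green), a symbol for each replicate and a line at the group mean. Cs_ont_5g032990 and Cs_ont_2g031290 have all T points below all CK points, while CK replicate 2 is the lowest point of Cs_ont_1g018640 (0.350) and Cs_ont_1g018650 (0.549).

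The summed level of the 5 neighbours was 159, 94.0 and 156 FPKM in T, against 123, 52.2 and 80.4 FPKM in CK, and the groups overlapped. Divided by the FPKM of Cs_ont_5g032990 in the same library, this sum was 0.527, 0.472 and 0.485 in T, against 0.303, 0.139 and 0.222 in CK. This ratio did not overlap between the groups, at 0.495 ± 0.0287 in T and 0.222 ± 0.0822 in CK (SD over 3 libraries). Since the gene lengths differ, this sum of FPKM depends on how counted reads were divided among the neighbours, whereas a sum of reads does not. Reads that match several genes and were left uncounted would be missing from both sums, and this was not tested. The reads of the 5 genes divided by those of Cs_ont_5g032990 were 0.242, 0.243 and 0.235 in T, against 0.156, 0.0813 and 0.120 in CK, again without overlap. Both ratios were formed after the values of these genes had been seen and are given as a description without a test. They share the denominator Cs_ont_5g032990, which alone had every T library below every CK library. Part of their separation therefore comes from that gene, and the second ratio is not independent of the first.

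**Figure D3:**
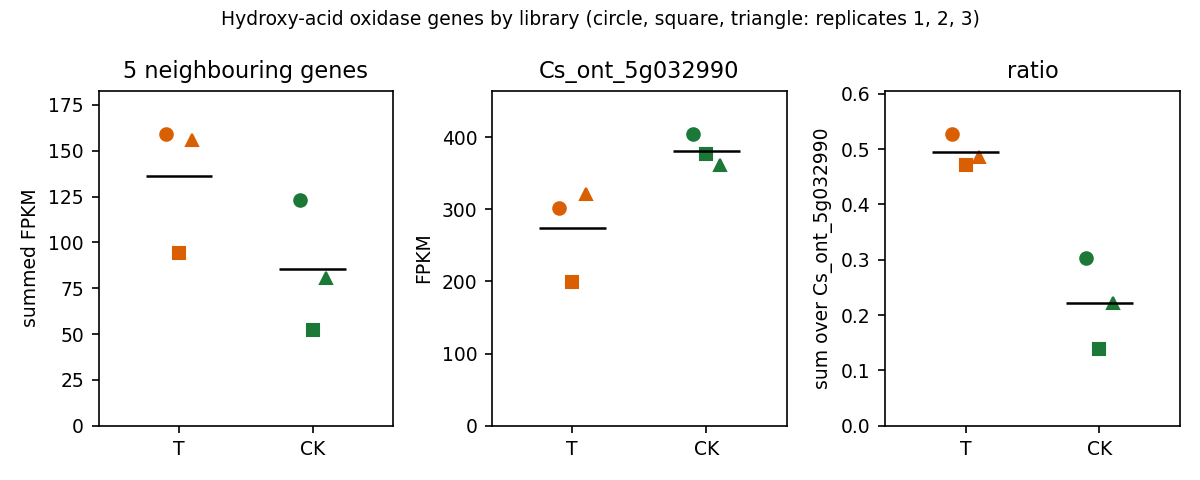
Summed FPKM of the 5 neighbouring oxidase genes (left), FPKM of Cs_ont_5g032990 (middle) and their ratio (right), with T left of CK, a point for each library and a line at the mean. The T ratios lie between 0.472 and 0.527 and the CK ratios between 0.139 and 0.303.

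The last members of the group were less variable or less abundant. Cs_ont_2g001990, which carries no GO term, had 10.1, 6.90 and 7.27 FPKM in T, against 6.73, 0.879 and 8.04 FPKM in CK, a log2 fold change of 0.82 (SE 0.60). CK replicate 2 was again the lowest library, and without it the log2 fold change was 0.10. Cs_ont_1g022570 entered the group through its photorespiration term, but it is annotated mainly as a ubiquitin transferase of matrix protein import and of contact between peroxisome and chloroplast. It had 6.61, 8.92 and 8.71 FPKM in T, against 7.61, 7.10 and 10.2 FPKM in CK, a log2 fold change of -0.03 (SE 0.21).

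Photosynthesis genes were mostly at lower levels in T as well. All 15 tested antenna protein genes had negative log2 fold changes (median -0.53), and their summed FPKM was 9884, 20167 and 9934 in T, against 16753, 19642 and 15372 in CK. Of the 39 tested genes of KEGG Photosynthesis, 32 had negative log2 fold changes (median -0.29), and the sum was 12587, 16497 and 13207 FPKM in T, against 20477, 19634 and 16117 FPKM in CK. T replicate 2 had the lowest levels of both photorespiratory enzymes. It had the highest photosynthesis sum of the T libraries and the highest antenna sum of all 6 libraries. The lower antenna sums in T were those of replicates 1 and 3. The summed FPKM of genes with the term phloem development was 247 to 313 in T and 119 to 175 in CK. That of xylem development genes was 352 to 433 in T and 210 to 366 in CK. However, 10 of 14 tested phloem genes and 16 of 25 tested xylem genes had negative log2 fold changes (medians -0.17 and -0.15). Both lists reached a highest log2 fold change of 5.38, also the highest over all tested genes. How far such an extreme raised the sums was not tested. In whole leaf tissue, fewer photosynthetic cells and less RNA per cell cannot be told apart, and the part of leaf composition in the values of these enzymes was not tested.

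Genes for the import of proteins and the organization of the organelle showed the narrowest range. Of 13 such members 11 were tested, with 4 positive and 7 negative log2 fold changes between -0.31 and 0.17 and standard errors of 0.15 to 0.25. None met the criterion, the lowest unadjusted p of the fit across all genes was 0.245, and in all 11 the T and CK libraries overlapped. Cs_ont_4g021870, which carries the term for binding of the type 1 targeting signal and so the function of the import receptor, had 34.0, 35.3 and 41.4 FPKM in T, against 39.0, 36.6 and 43.3 FPKM in CK. Cs_ont_5g045920, annotated to docking of the receptor at the membrane, had 34.1, 36.1 and 38.2 FPKM in T, against 38.1, 29.1 and 43.5 FPKM in CK. Both differed by no more than 0.10 log2 units, less than their standard errors. Cs_ont_5g018670, the most abundant gene of this kind, had 61.1, 56.2 and 54.3 FPKM in T, against 52.8, 77.3 and 52.4 FPKM in CK. The ubiquitin transferases of import, Cs_ont_1g017050 and Cs_ont_8g012020, had log2 fold changes of -0.03 (SE 0.23) and 0.01 (SE 0.22). Summed over the 13 genes, expression was 234 ± 9.37 FPKM in T and 242 ± 13.3 FPKM in CK (SD over 3 libraries).

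The extremes of this set were small. Cs_ont_2g001130, a carbonyl and 3-keto sterol reductase that holds an organization term, had the lowest log2 fold change, -0.31 (SE 0.25), with 9.75, 16.7 and 9.68 FPKM in T, against 13.2, 14.3 and 17.1 FPKM in CK. Its neighbour Cs_ont_2g001120, with the same terms, was listed at 0 in all libraries. Cs_ont_2g009050, annotated to matrix protein import, had the highest, 0.17 (SE 0.18).

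The other members with Peroxisome as their only pathway carry a location term, an enzyme or transporter term, or none of these. Cs_ont_4g015110, annotated to the peroxisomal membrane, was the second most abundant member, with 127, 94.4 and 162 FPKM in T, against 162, 128 and 165 FPKM in CK. T replicate 3 lay above CK replicate 2, so the groups overlapped, and the log2 fold change was -0.27 (SE 0.25), or -0.07 without T replicate 2. Cs_ont_7g002980, whose only specific term is copper ion binding, was the single tested member with every T library above every CK library, a pattern shown by 4.46% of all tested genes. It had 83.9, 79.6 and 78.4 FPKM in T, against 74.2, 50.3 and 75.1 FPKM in CK, a log2 fold change of 0.30 (SE 0.20). Only CK replicate 2 lay well apart, and without it the log2 fold change was 0.11. Cs_ont_7g001010, a carrier of adenine nucleotides with a term for regulation of peroxisome size, had 17.7, 24.5 and 11.2 FPKM in T, against 10.0, 10.7 and 15.7 FPKM in CK, a log2 fold change of 0.48 (SE 0.31).

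Cs_ont_3g017770 had the most negative log2 fold change of any member and carries no GO term, so its function is not given beyond the pathway. It had 12.7, 20.3 and 12.4 FPKM in T, against 22.2, 33.4 and 65.9 FPKM in CK. Every T library lay below every CK library, and CK replicate 3 was far above the other CK libraries. The log2 fold change was -1.26 (SE 0.41), and the gene met the criterion for lower expression (limma, adjusted p = 0.898, exact permutation p = 0.1). Without CK replicate 3 it was -0.84 and the call was lost, as it was without T replicate 1 (-1.15) or T replicate 3 (-1.14). It stands directly beside the member Cs_ont_3g017760, in a run of genes that includes several of the superoxide dismutase genes dropped by the rule. Cs_ont_3g017760 had 2.32, 1.06 and 0.484 FPKM in T, against 0.0894, 0 and 4.27 FPKM in CK, resting on at most 60 reads in a library. The dropped superoxide dismutase gene Cs_ont_8g006180, noticed for its values and not by rule, had a similar profile with 12.5, 21.3 and 14.6 FPKM in T, against 22.2, 43.8 and 88.6 FPKM in CK. Its log2 fold change was -1.43 (SE 0.49). The dropped superoxide dismutase genes did not share this direction. Of the 5 that were tested, 3 had positive and 2 negative log2 fold changes, and Cs_ont_7g013930 was at 1.04 (SE 0.38).

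The remaining 10 tested members with none of these terms had log2 fold changes between -0.23 and 0.27, and 9 of them were positive. CK replicate 2 was the lowest library in 8 of the 11 tested members of this set. Over all tested members it was the lowest in 20 of 52, or 38.5%, beside 25.1% of all tested genes.

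The enzymes of amino acid, purine and isoprenoid metabolism numbered 10, of which 8 were tested, with 5 positive and 3 negative log2 fold changes and a median of 0.02. The only member of this set whose difference exceeded 0.5 log2 units was Cs_ont_4g015470, annotated as sarcosine oxidase, an activity that releases formaldehyde and hydrogen peroxide from sarcosine. It had 8.25, 15.4 and 7.96 FPKM in T, against 13.2, 18.8 and 17.5 FPKM in CK, a log2 fold change of -0.65 (SE 0.28). T replicate 2 lay within the CK range and the criterion was not met (limma, adjusted p = 0.999, exact permutation p = 0.2). A second sarcosine oxidase gene, Cs_ont_4g000850, had 4.99, 8.64 and 1.89 FPKM in T, against 2.53, 2.58 and 4.83 FPKM in CK. In this gene the higher mean was that of T, and the groups overlapped.

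The more abundant enzymes of this set were near equal in the groups. Cs_ont_3g016380, a mevalonate kinase of the isoprenoid pathway, had 18.5, 29.8 and 19.6 FPKM in T, against 18.0, 24.3 and 23.7 FPKM in CK. Cs_ont_9g002180, placed by KEGG in valine, leucine and isoleucine degradation, had 18.7, 21.4 and 20.0 FPKM in T, against 19.2, 21.9 and 25.3 FPKM in CK. Their log2 fold changes were 0.02 (SE 0.23) and -0.13 (SE 0.16), and the sign of the first turned under other settings. Cs_ont_2g032330, a xanthine dehydrogenase of purine breakdown, had a log2 fold change of 0.16 (SE 0.24).

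The 11 members in the pathway of cutin, suberin and wax biosynthesis were the most variable between libraries of a group. Of these, 10 carry the term for fatty acyl-CoA reductases, which make the fatty alcohols of surface lipids, and 6 passed the filter. Cs_ont_8g007580 had 11.8, 30.3 and 1.14 FPKM in T, against 3.58, 8.23 and 11.4 FPKM in CK. Cs_ont_8g007560 had 2.29, 6.87 and 0.223 FPKM in T, against 2.0, 5.33 and 2.47 FPKM in CK. Cs_ont_6g010940 had 2.52, 4.94 and 0.355 FPKM in T, against 0.903, 1.32 and 0.939 FPKM in CK. The spread was wider within T, where replicate 2 was high and replicate 3 low. The CK libraries varied too, from 3.58 to 11.4 FPKM in Cs_ont_8g007580.

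Replicate 3 of T was the lowest library in all 6 tested reductase genes, as it was in 15.6% of all tested genes, and T replicate 2 was the highest in 5 of the 6, beside 25.3% of all tested genes. The fitted log2 fold changes of the 6 genes lay between -0.35 and 0.58 with standard errors as large as 0.96, and none met the criterion. The sign of Cs_ont_8g007580, at 0.24, turned to -0.62 without T replicate 2, and that of Cs_ont_8g007560, at -0.35, turned to 0.33 without T replicate 3. The genes lie in runs of neighbours and may share reads, and several are low: Cs_ont_8g007550 had 28, 78 and 0 reads in T, against 9, 30 and 47 reads in CK.

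**Figure D4:**
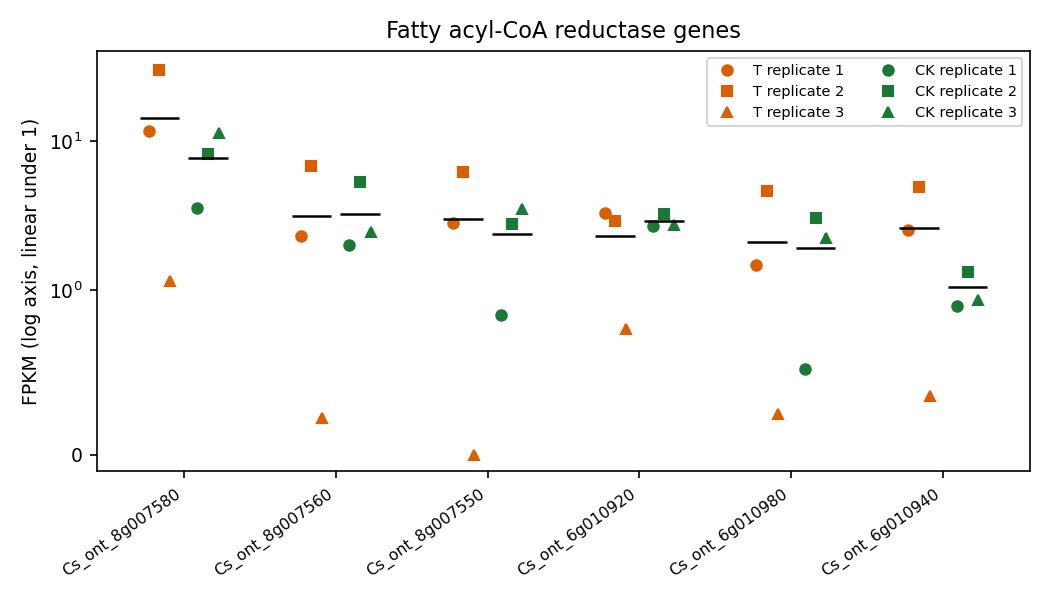
FPKM (vertical axis, logarithmic above 1 and linear under 1) of the 6 tested fatty acyl-CoA reductase genes, with T (orange) left of CK (green), a symbol for each replicate and a line at the group mean. T replicate 3 (triangle) is the lowest point of every gene and T replicate 2 (square) the highest of all except Cs_ont_6g010920.

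The spread between libraries of a group, taken as the pooled standard deviation of log2(FPKM + 1), differed among these sets. Its median was 0.98 for the reductase genes and 0.56 for the photorespiration and glyoxylate genes. It was 0.21 for the import and organization genes, and also 0.21 for the 11 tested members with no import, location, enzyme or transporter term. The median was 0.29 for all tested members and 0.31 for all tested genes. A log2 fold change of 1 on this scale was therefore about as large as the replicate spread in the reductases and several times that of the import genes. For genes of a few FPKM, as most of the reductases were, a 2-fold difference in FPKM is less than 1 on this scale.

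**Figure D5:**
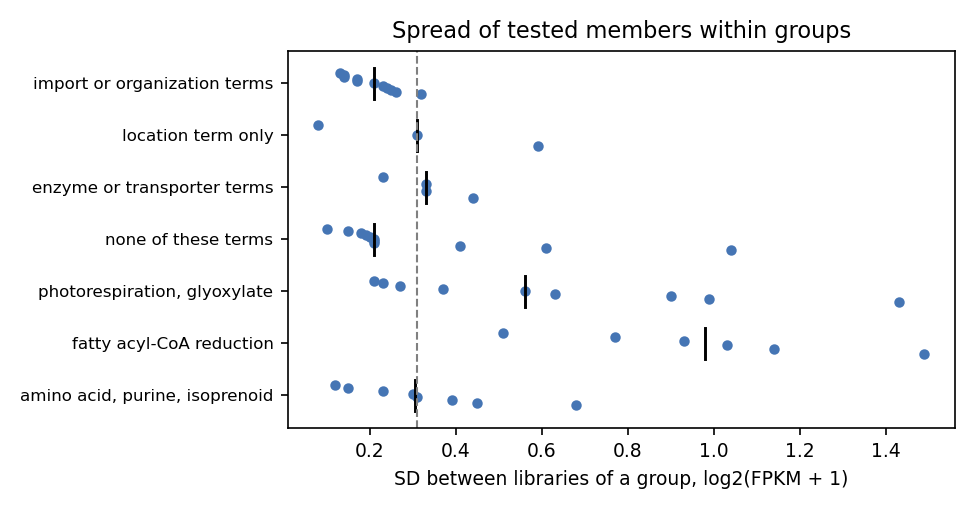
Pooled standard deviation of log2(FPKM + 1) between libraries of a group (horizontal axis) for each tested member, in rows by annotation, with a black tick at the median and a dashed line at the median of all tested genes, 0.31. The import genes lie between 0.13 and 0.32 and the reductase genes between 0.51 and 1.49.

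Other genes of the same processes were counted as background to the members. Of 18 tested genes outside the set with the term photorespiration, 10 had positive and 8 negative log2 fold changes (median 0.01), none met the criterion, and the summed FPKM was 924 ± 45.0 in T and 1026 ± 62.6 in CK (SD over 3 libraries). Of 20 tested genes with the term fatty acid beta-oxidation, 19 were positive (median 0.19), none met the criterion, and the summed FPKM was 685, 655 and 639 in T, against 598, 494 and 559 in CK, without overlap. Of 116 tested non-members located to the peroxisome, 75 were positive (median 0.07), 1 was higher and 1 lower by the criterion. The only gene of the table with the catalase term, which removes hydrogen peroxide and was dropped for its peroxidase term, is Cs_ont_3g001020. It had 3163, 2928 and 3193 FPKM in T, against 4440, 2438 and 2919 FPKM in CK, and the groups overlapped.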

How the data were processed

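The deposited FPKM values were made by the authors, whose methods name fastp, HISAT2, HTSeq and DESeq. Tool versions were not stated, and the study names a sweet orange genome release without saying that reads were aligned to it. Columns with the authors' group means, log2 fold changes, p-values and calls were left aside. Whole reads were recovered from the FPKM steps for 100.0% of the 22740 genes above 0 (tolerance 1e-06 of a read). The shortest gene length that gave whole reads was kept, so recovered lengths and reads can be too low. Recovered depth was 17689351 to 24026313 reads in genes. The library totals behind the FPKM values were slightly higher, at 17769864 to 24127985, so that 1 read in 1 kilobase amounted to 0.0414 to 0.0563 FPKM.

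The T minus CK difference of log2(FPKM + 1), a scale that understates changes of low genes, was fitted with limma 3.58.1 (R 4.3.3; lmFit and eBayes with trend; 4 residual degrees of freedom) and tested two-sided in the 16421 genes that reached 1 FPKM in 3 or more libraries. The code was tested on simulated data. Exact permutation tests used scipy 1.17.1.

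The members and lists were chosen with earlier results of these data known, and members with Peroxisome as their only pathway were split by GO terms after the annotation was seen. Functions are the table's annotations, and 0 members matched the RefSeq gene table. Named genes are the members meeting the criterion, the 2 most abundant of each set, the 5 largest rises and falls, members without overlap at an unadjusted p under 0.05, and others picked for role or pattern after their values were seen. Alternatives were other pseudocounts, filters and scalings, library weights, limma voom on recovered reads, a replicate block and leaving out each library. Leave-one-out fits kept the genes tested with all 6 libraries; this was decided after fits that filtered again on the 5 libraries left had been seen, and both are given.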

Additional observations from a re-analysis of the deposited data

How the results depend on the processing

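No member passed an adjusted p of 0.05 under any of 15 alternatives. Over all genes, the 1 call at an adjusted p under 0.05 became 0 with a pseudocount of 5, no filter, limma voom or a replicate block, 12 with array weights, and 0 to 2 leaving out 1 library. Genes higher by the criterion numbered 209, against 121 with a pseudocount of 5, 137 with a filter at 5 FPKM, 567 with array weights and 121 to 398 leaving out 1 library. Genes lower numbered 178, against 104 with a pseudocount of 5, 363 with array weights and 120 to 396 leaving out 1 library. With the filter applied again to the 5 libraries left, as these fits were first made, the ranges were 103 to 377 higher and 107 to 385 lower. Members higher by the criterion numbered 1, against 2 with a pseudocount of 5, 3 with array weights, 2 with the replicate block and 0 to 2 leaving out 1 library. Members lower numbered 2, against 0 to 2 leaving out 1 library. The cause of these shifts was not tested.

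Cs_ont_3g016380 (0.02) turned to -0.15 with array weights, -0.19 without T replicate 2 and -0.11 without CK replicate 1 (-0.19 to 0.14 leaving out 1 library). Cs_ont_8g007580 (0.24) turned to -0.62 without T replicate 2 and -0.17 without CK replicate 1 (-0.62 to 1.31), and Cs_ont_8g007560 (-0.35) to 0.33 without T replicate 3 (-1.01 to 0.33). The member median stayed between 0.01 and 0.11. Deviations of same-numbered libraries correlated at 0.28, 0.21 and -0.04, and those of differently numbered libraries at -0.40 to 0.23. These values overlap and do not settle whether replicate numbers pair the libraries.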
